A study of Rattus norvegicus with 12 samples.

Results

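Timp1 and Timp2 encode tissue inhibitors of metalloproteinases, and their transcripts were followed in rat blood after lipopolysaccharide (LPS), a molecule of the outer membrane of Gram-negative bacteria that triggers inflammation. Both genes were found by their symbols in the platform annotation, with 1 probe each, among 3939 named genes on 7200 probes. They were chosen by their own log2 ratios at 6 h and 2 h, which were already known, so those ratios are given as a description, with no test.

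The study set total RNA of 6 rats, 3 labelled 6 h (rats 2, 4 and 6) and 3 labelled 2 h (rats 1, 2 and 3) after LPS, against a control pool of the same time on 2-colour arrays. The labels give no strain, age, sex, dose or route, and do not say what the control animals received; blood is named in the series title alone. Each rat was hybridised on 2 arrays, called fluor (pool in channel 1, rat in channel 2) and flip (the channels exchanged), which gives 12 arrays. Since either array of a rat compares the same RNAs, the pair was averaged, so n = 3 rats at each time, and the spread between rats leaves out the spread of each single pool. Each time has a pool of its own, so a change of pool is part of every 6 h minus 2 h value. Rat 2 appears at both times, and the labels do not say whether it is 1 animal.

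Every value is a log2 ratio of the channels as deposited, and a positive one is taken as more transcript in the LPS rat. That direction is only likely, because the labels do not say which channel was divided by which. Over all 7200 probes the paired arrays of each rat, fluor against flip, correlated at 0.14, 0.0658 and -0.0467 at 6 h (rats 2, 4 and 6) and at 0.0891, 0.249 and -0.234 at 2 h (rats 1, 2 and 3). The reading rests on 8 measured genes of 28 that textbooks give as LPS-induced. Of them 5 (Zfp36, Lcn2, Irf1, Il1r2 and Il1b) were positive on each of the 12 arrays, and 0 passed the limma threshold below 0. The others were less clear: Sod2 was positive on 10 arrays, Tnf on 8 and Nfkbia on 3. Tnf had a mean of -0.0037 at 2 h and Nfkbia of -0.11 at 6 h. Values with the flip arrays multiplied by -1, the other reading, are given beside the results for both inhibitors, for the counts of calls and for the other genes where the text says so. Array medians ran from -0.0202 to 0.00827 and array standard deviations from 0.27 to 0.475; how the arrays were centred is unknown. Ratios carry no level, so the tissue could not be checked against its markers, and the level of one gene cannot be set against another.

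Tissue inhibitors of metalloproteinases are small secreted proteins that bind the catalytic zinc site of matrix metalloproteinases and block them, and with them the breakdown of extracellular matrix and the release of surface proteins. Timp1 is known as an inducible gene, switched on by inflammatory cytokines and growth factors, and its protein binds pro-Mmp9 and the tetraspanin Cd63. Timp2 is usually described as more evenly expressed; its protein also bridges the membrane protease Mmp14 and pro-Mmp2, and so takes part in the activation of Mmp2. Leukocytes and platelets carry such inhibitors in blood.

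The 250 bases before the start that the RefSeq promoter table gives for each gene (GRCr8, minus strand in both cases) are shown because both genes stood above 0 after LPS and differ in the motifs of this window. Capitals mark matches to the searched motifs. For Timp1 the window is chrX:3771123-3771372 and for Timp2 it is chr10:104089215-104089464. The Timp2 window lies directly before the gene record, whereas the Timp1 record extends farther upstream than its window, so the start used for Timp1 is not the outermost one annotated.
Timp1: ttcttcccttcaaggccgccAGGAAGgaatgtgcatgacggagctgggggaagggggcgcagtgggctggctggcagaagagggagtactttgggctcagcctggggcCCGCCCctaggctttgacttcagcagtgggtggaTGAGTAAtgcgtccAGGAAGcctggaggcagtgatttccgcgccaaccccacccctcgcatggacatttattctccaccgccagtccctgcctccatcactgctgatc
Timp2: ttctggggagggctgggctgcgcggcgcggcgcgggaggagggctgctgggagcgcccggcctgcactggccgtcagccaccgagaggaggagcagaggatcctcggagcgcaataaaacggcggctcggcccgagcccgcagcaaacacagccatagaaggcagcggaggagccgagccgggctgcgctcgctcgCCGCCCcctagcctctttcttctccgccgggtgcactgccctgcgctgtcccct

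The Timp1 window held the heptamer TGAGTAA, known as the AP-1 element of the Timp1 promoter, 108 to 102 bases before the start. It also held the Ets-type hexamer AGGAAG at 230 to 225 and at 94 to 89 bases before the start, and the Sp1 GC box GGGCGG on the other strand at 142 to 137. The Timp2 window, with 72% G or C bases against 61.2% for Timp1, held 1 GC box, on the other strand at 54 to 49. Neither window held the AP-1 consensus TGANTCA, the NF-kappaB consensus or the TATA box hexamer TATAAA. Both strands were searched, and no 2 of these matches overlapped. Of 33469 promoter windows of the same length, 2.38% held TGAGTAA, 29.5% AGGAAG, 30.5% GGGCGG, 6.34% TGANTCA, 12.9% TATAAA and 6.33% the NF-kappaB consensus. A match is a description of letters and no evidence of binding.

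Timp2 stood above 0 on all 12 arrays and was much closer to the pool at 6 h than at 2 h. At 6 h rat 2 had log2 ratios of 0.37 on the fluor array and 0.41 on the flip array, rat 4 had 0.34 and 0.19, and rat 6 had 0.48 and 0.16. At 2 h rat 1 had 1.27 on the fluor array and 1.15 on the flip array, rat 2 had 1.28 and 1.13, and rat 3 had 1.44 and 0.82. As deposited, the highest of the 6 h arrays was thus below the lowest of the 2 h arrays, over fluor and flip arrays together. With the flip arrays multiplied by -1 this separation was lost, as the 2 h flip arrays then lay below every 6 h array. The rat means were 0.39, 0.27 and 0.32 at 6 h, against 1.21, 1.21 and 1.13 at 2 h.

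**Figure D1:**
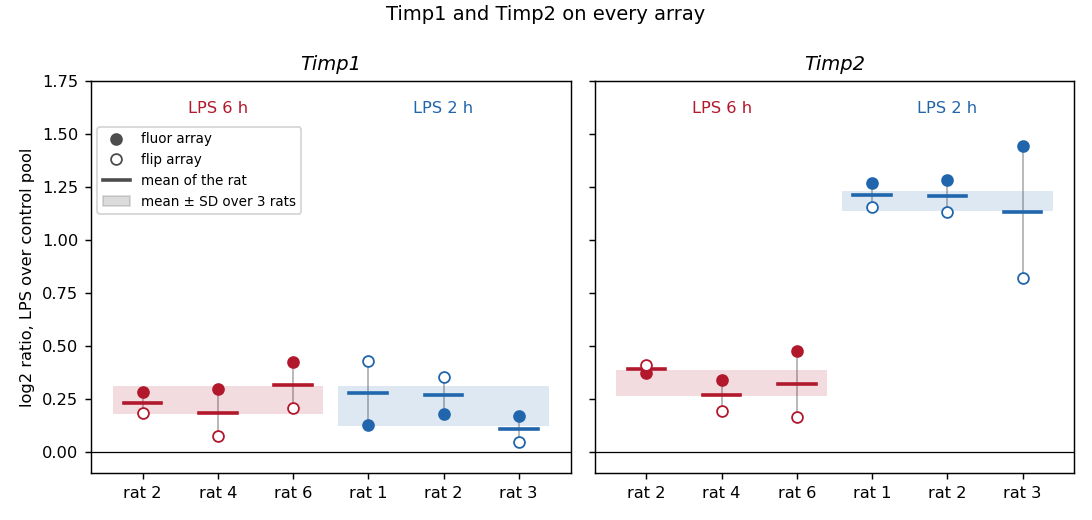
Log2 ratio of LPS over control pool (vertical axis) for Timp1 (left) and Timp2 (right) in each rat at 6 h and 2 h; filled points are fluor arrays, open points flip arrays, short bars rat means, and shaded bands the mean ± SD over 3 rats. Timp2 rat means lie between 0.27 and 0.39 at 6 h and between 1.13 and 1.21 at 2 h, while the Timp1 bands of the 2 times overlap.

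Averaged over rats, Timp2 was at 0.32 ± 0.062 at 6 h and at 1.18 ± 0.046 at 2 h (SD, n = 3 each), that is 1.25-fold and 2.27-fold over the pools. The difference, 6 h minus 2 h, was -0.86 with a standard error of 0.049, a ratio 0.551 times as large at 6 h. In bulk blood RNA, fewer cells that carry a transcript and less of it per cell cannot be told apart. Among 3939 named genes Timp2 ranked 107th from the top at 6 h and 11th at 2 h, and its difference between the times was the 7th lowest. At 6 h 0.330% of named genes and at 2 h 0.355% had a mean of at least 2-fold over the pool, a size that Timp2 passed at 2 h alone. Its rats did not overlap between the times, which also held for 10.1% of named genes in that direction.

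Timp1 was slightly above its pools on every array, at a like size at both times. At 6 h rat 2 had 0.28 on the fluor array and 0.18 on the flip array, rat 4 had 0.29 and 0.072, and rat 6 had 0.43 and 0.21. At 2 h rat 1 had 0.12 on the fluor array and 0.43 on the flip array, rat 2 had 0.18 and 0.35, and rat 3 had 0.17 and 0.046. The rat means were 0.23, 0.18 and 0.32 at 6 h and 0.28, 0.27 and 0.11 at 2 h, so the times overlapped. The lowest rat at 2 h, rat 3, was also the lowest of the 2 h rats for Timp2.

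The mean of Timp1 was 0.24 ± 0.067 at 6 h and 0.22 ± 0.095 at 2 h (SD, n = 3 each), 1.18-fold and 1.16-fold over the pools. The difference, 6 h minus 2 h, was 0.027 with a standard error of 0.062, smaller than the spread between rats. It took the other sign without 6 h rat 6 (-0.0089) and without 2 h rat 3 (-0.027). Timp1 ranked 202nd of the named genes at 6 h and 269th at 2 h. Both genes lay above 0 on all 12 arrays, as did 3.88% of named genes; this was among the values known when the genes were chosen.

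**Figure D2:**
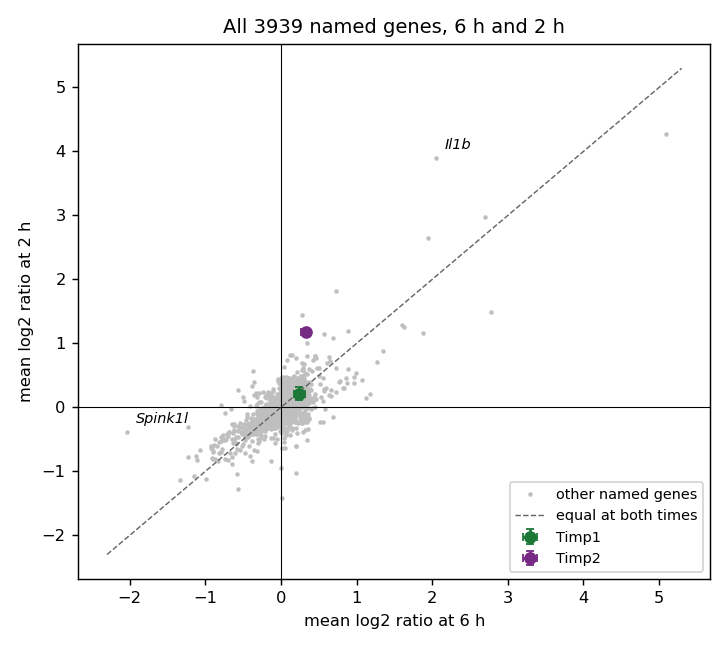
Mean log2 ratio at 6 h (horizontal) and at 2 h (vertical) of the 3939 named genes (grey), with Timp1 and Timp2 in colour (bars: SD over 3 rats). Timp1, at 0.24 and 0.22, lies on the line of equal ratios within its error, and Timp2, at 0.32 and 1.18, lies above it, on the same side as Il1b.

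The orientation of the arrays bears on either gene. For Timp2 the fluor array exceeded the flip array by -0.0387, 0.145 and 0.313 in 6 h rats 2, 4 and 6 and by 0.116, 0.152 and 0.626 in 2 h rats 1, 2 and 3. The widest gap was that of 2 h rat 3, whose 2 arrays also had the lowest correlation over all probes (-0.234). For Timp1 the gap was 0.0992, 0.222 and 0.219 at 6 h and -0.304, -0.171 and 0.122 at 2 h, so the flip array was the higher one in 2 h rats 1 and 2. The mean size of the gap was 0.232 for Timp2 and 0.19 for Timp1, against a median of 0.153 over named genes. With the flip arrays multiplied by -1, Timp2 stood at 0.070 at 6 h and 0.15 at 2 h, and Timp1 at 0.090 at 6 h and -0.059 at 2 h. In that reading the difference, 6 h minus 2 h, was -0.079 for Timp2 and 0.15 for Timp1.

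The probes numbered next to those of the 2 genes were read too. Of the 10 nearest probes to that of Timp2, none had a mean of 1 or more in size at either time. The probe just before it, Plcb4, a phospholipase C singled out here after its values were seen, ran from -1.79 to 0.29 on fluor arrays and from 0.78 to 1.66 on flip arrays, an opposition that Timp2 did not show. With the median of the 10 nearest probes subtracted, Timp2 was at 0.30 at 6 h and 1.16 at 2 h, and Timp1 at 0.23 and 0.21. Neither gene had, on any array, the single value that 242 to 298 probes of an array share.

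Timp3, the family member that binds to the matrix itself, was the third inhibitor of the family measured, with 2 probes, and Timp4 was not among the named genes. Timp3 averaged -0.048 ± 0.013 at 6 h and -0.019 ± 0.0023 at 2 h (SD, n = 3 each), and neither passed limma's test (adjusted p = 0.218 and 0.624). Its probes were at -0.066 and -0.030 at 6 h and at 0.0047 and -0.042 at 2 h, and over all arrays they ran from -0.15 to 0.099.

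The other genes of the pathway were read from 4 lists, of metalloproteinases, other protease inhibitors, other proteases, and partners of the inhibitors with matrix proteins. Of 194 listed genes besides Timp1 and Timp2, 83 were measured. At 6 h 12 rose and 8 fell by limma's test (adjusted p under 0.05), which is 24.1% of those measured, against 19.0% of all named genes (8.30% higher and 10.7% lower). At 2 h 8 rose and 7 fell, 18.1% against 19.2% of all named genes (9.34% higher and 9.82% lower). Between the times 1 was lower at 6 h and 0 were higher, 1.20% against 0.508% of all named genes (0.178% lower and 0.330% higher). The median over the 83 genes was 0.038 at 6 h and -0.017 at 2 h, against 0.0069 and -0.0070 over all named genes. The split turned with the orientation: at 6 h it was 11 up and 17 down on fluor arrays alone and 28 up and 8 down on flip arrays alone, and at 2 h it was 10 up and 12 down on fluor arrays and 9 up and 2 down on flip arrays. With the arrays scaled to 1 spread the split at 2 h was 12 up and 6 down, and with neighbouring probes subtracted it was 16 up and 6 down at 6 h. The count at 6 h fell to 6 without 6 h rat 2 and to 11 without 6 h rat 4. The count at 2 h fell to 6 without 2 h rat 2, to 9 without 2 h rat 3 and to 9 without 6 h rat 2. Of 36 calls over the times and their difference, 24 ended without at least 1 rat, and 0 changed sign; below, the adjusted p given without a rat is the highest over the rats left out, and a call with none was kept whichever rat was left out. With the flip arrays multiplied by -1 there were 33 calls at 6 h (10 up, 23 down) and 15 at 2 h (4 up, 11 down), of which 2 at each time were calls of the deposited reading in the same direction. Of the 36 calls, 17 had the other sign in that reading, and 15 kept their sign but did not pass. Of those 17, only Ctsl, Mcpt1, Mmp23 and Spink1l at 6 h passed there. The remaining 4 held, namely Ctsc at both times, Gzmc at 6 h and Ece1 at 2 h.

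**Figure D3:**
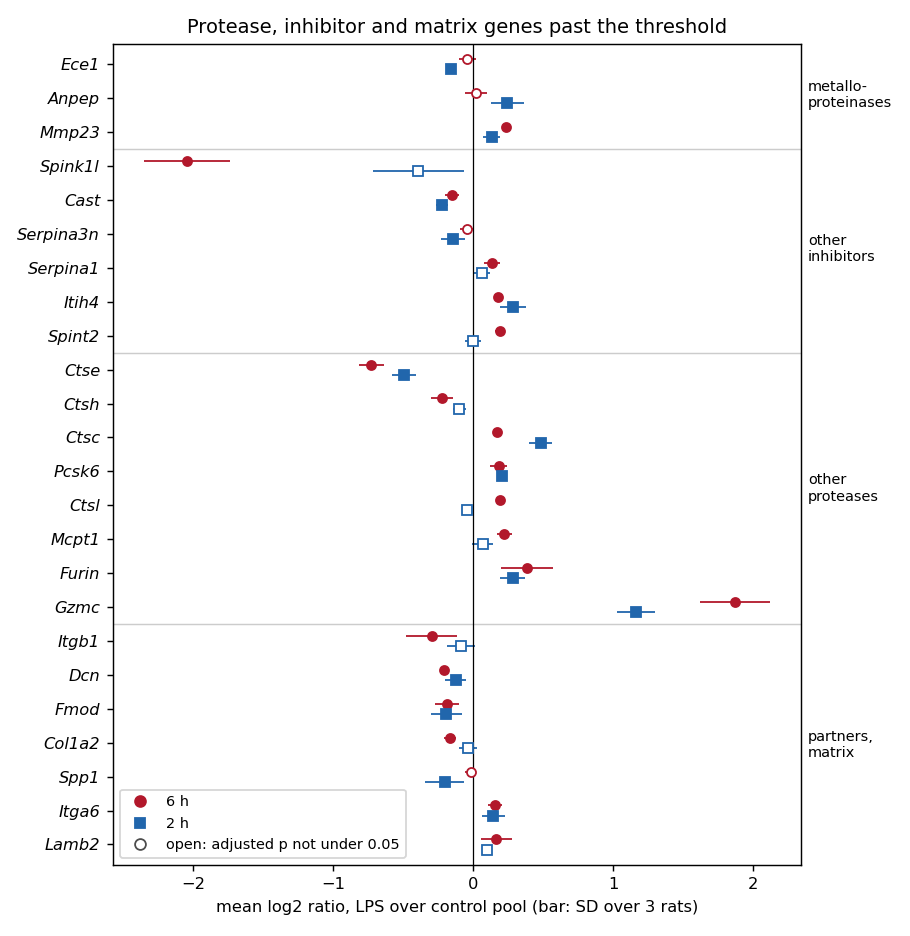
Mean log2 ratio (horizontal axis; bars are SD over 3 rats) at 6 h (red circles) and 2 h (blue squares) of the 24 genes of the 4 lists that passed limma's threshold at either time or between the times; open symbols did not pass. Gzmc, at 1.87 and 1.17, and Spink1l, at -2.04 and -0.39, stand farthest from 0, followed by Ctse at -0.72 and -0.49.

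The 11 measured metalloproteinases are zinc enzymes, among which the matrix family holds the classical targets of these inhibitors. Of these 1 rose at 6 h (9.09%, against 19.0% of all named genes), and 2 rose and 1 fell at 2 h (27.3%, against 19.2%). Mmp23, a membrane-anchored matrix metalloproteinase, rose by 0.23 ± 0.029 at 6 h (adjusted p = 0.00411). At 2 h it rose by 0.13 ± 0.061 (adjusted p = 0.0335, or 0.14 without 2 h rat 1). In the other reading of the flip arrays Mmp23 passed below 0 at 6 h (-0.088, adjusted p = 0.0468). Mmp2, the partner of Timp2, was at 0.086 ± 0.066 at 6 h and 0.038 ± 0.015 at 2 h, and Mmp14, which anchors Timp2 to the cell surface, at -0.049 ± 0.031 and -0.056 ± 0.025; neither passed at either time (adjusted p from 0.108 to 0.43). The macrophage elastase Mmp12 was at -0.061 ± 0.063 at 6 h and -0.12 ± 0.095 at 2 h (adjusted p = 0.345 and 0.102). In the other reading of the flip arrays Mmp2, Mmp14 and Mmp12 passed below 0 at 6 h. They stood there at -0.12, -0.13 and -0.11 (adjusted p = 0.0128, 0.0142 and 0.00864). Mmp9, the partner of Timp1, was not among the named genes.

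The calls at 2 h among the remaining metalloproteinases were on peptidases outside the matrix family. Anpep, aminopeptidase N of myeloid cells, was at 0.022 ± 0.081 at 6 h (adjusted p = 0.78) and rose by 0.25 ± 0.12 at 2 h (adjusted p = 0.0194; 0.0748 without 2 h rat 2). Ece1, the endothelin-converting enzyme, was at -0.041 ± 0.059 at 6 h (adjusted p = 0.397) and fell by 0.16 on the log2 scale at 2 h (adjusted p = 0.0192; 0.0825 without 2 h rat 2). Bmp1, Adamts7, Mep1b, Mme and Ace lay between -0.13 and 0.13 at either time and did not pass. In the other reading of the flip arrays Mep1b was at -0.23 (adjusted p = 0.0091) and Ace at 0.15 (adjusted p = 0.0122) at 6 h. Ace also passed at 2 h in that reading (0.12, adjusted p = 0.0464).

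Among 18 other protease inhibitors 3 rose and 2 fell at 6 h (27.8%, against 19.0% of all named genes). At 2 h 1 rose and 2 fell (16.7%, against 19.2%). Spink1l, named as a relative of a trypsin inhibitor, was at -2.04 ± 0.31 at 6 h (adjusted p = 0.000205) and at -0.39 ± 0.32 at 2 h (adjusted p = 0.0942); in the other reading of the flip arrays it was at 0.24 at 6 h (adjusted p = 0.0159) and at 0.074 at 2 h. Cast, the inhibitor of calpains, fell at both times, to -0.15 ± 0.050 at 6 h (adjusted p = 0.0213; 0.131 without 6 h rat 2) and -0.22 ± 0.042 at 2 h (adjusted p = 0.00541). Itih4, an acute phase relative of the inter-alpha-trypsin inhibitor chains, rose by 0.18 ± 0.0078 at 6 h (adjusted p = 0.0213; 0.108 without 6 h rat 2) and by 0.28 ± 0.095 at 2 h (adjusted p = 0.00398). Spint2, a membrane inhibitor of serine proteases, rose at 6 h (0.19 ± 0.037, adjusted p = 0.00908; 0.0591 without 6 h rat 2), as did Serpina1, alpha-1 antitrypsin (0.14 ± 0.055, adjusted p = 0.0414; 0.215 without 6 h rat 2). Serpina3n fell at 2 h (-0.14 ± 0.085, adjusted p = 0.0489; 0.205 without 2 h rat 2).

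Among 22 other proteases 6 rose and 2 fell at 6 h (36.4%, against 19.0% of all named genes). At 2 h 4 rose and 1 fell (22.7%, against 19.2%). Gzmc, a granzyme of cytotoxic lymphocyte granules, rose by 1.87 ± 0.25 at 6 h (adjusted p = 8.1e-05) and by 1.17 ± 0.13 at 2 h (adjusted p = 0.000573); in the other reading it was at 0.42 (adjusted p = 0.045) and 0.26 (adjusted p = 0.219). Ctsc, the cathepsin that activates granule serine proteases, rose by 0.17 ± 0.012 at 6 h (adjusted p = 0.0177; 0.109 without 6 h rat 2) and by 0.48 ± 0.082 at 2 h (adjusted p = 0.000491), its 2 probes being at 0.24 and 0.11 at 6 h and at 0.72 and 0.25 at 2 h. Furin, which cleaves the propeptide of Mmp14 and other membrane metalloproteinases, rose by 0.38 ± 0.19 at 6 h (adjusted p = 0.0103) and by 0.28 ± 0.089 at 2 h (adjusted p = 0.0325; 0.162 without 2 h rat 2). The related convertase Pcsk6 rose by 0.18 ± 0.058 at 6 h (adjusted p = 0.0105; 0.0823 without 6 h rat 2) and by 0.21 ± 0.035 at 2 h (adjusted p = 0.00695).

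The aspartic protease Ctse, cathepsin E, fell to -0.72 ± 0.087 at 6 h (adjusted p = 0.00015) and -0.49 ± 0.087 at 2 h (adjusted p = 0.00096). Ctsh fell at 6 h (-0.22 ± 0.082, adjusted p = 0.00944; 0.0656 without 6 h rat 2). Ctsl (0.19 ± 0.028, adjusted p = 0.00462) and the mast cell protease Mcpt1 (0.22 ± 0.055, adjusted p = 0.0086; 0.0698 without 6 h rat 2) rose at 6 h, though on the fluor arrays alone they stood at -0.049 and -0.0053, and in the other reading of the flip arrays at -0.24 and -0.23. The plasminogen activators Plau and Plat, of which the first also activates matrix metalloproteinases, did not pass at either time (adjusted p from 0.113 to 0.948), though in that other reading Plau was at -0.15 at 6 h (adjusted p = 0.00916), against 0.11 as deposited.

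Among 32 partners and matrix genes 2 rose and 4 fell at 6 h (18.8%, against 19.0% of all named genes). At 2 h 1 rose and 3 fell (12.5%, against 19.2%). Itgb1 was the farthest from 0 among these calls. Cd63, the surface partner of Timp1, was at 0.038 ± 0.027 at 6 h and 0.087 ± 0.026 at 2 h (adjusted p = 0.354 and 0.0688); at 2 h it passed with the arrays scaled to 1 spread (adjusted p = 0.026) and with quantile normalization (0.0346), but it was at 0.011 with neighbouring probes subtracted (adjusted p = 0.836) and in the other reading of the flip arrays at -0.0098 (adjusted p = 0.881). Itgb1, the integrin beta 1 chain that associates with Cd63, fell at 6 h (-0.30 ± 0.18, adjusted p = 0.0267; 0.136 without 6 h rat 2) and was at -0.083 ± 0.10 at 2 h (adjusted p = 0.412). Of the proteoglycans Dcn (-0.21 ± 0.022 and -0.12 ± 0.073) and Fmod (-0.18 ± 0.086 and -0.19 ± 0.11) fell at both 6 h and 2 h. Without 6 h rat 2 their adjusted p at 6 h was 0.0593 and 0.215, and at 2 h it was 0.156 for Dcn without rat 3 and 0.149 for Fmod without rat 2. Col1a2 fell at 6 h (-0.16 ± 0.046) and Spp1, osteopontin, at 2 h (-0.20 ± 0.14), while Itga6 rose at both times (0.16 ± 0.047 and 0.15 ± 0.082) and Lamb2 at 6 h (0.17 ± 0.11). Without 6 h rat 2 the adjusted p of Col1a2 was 0.131, of Itga6 0.143 and of Lamb2 0.155, and without 2 h rat 2 that of Spp1 was 0.184 and of Itga6 0.181.

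Of 29 genes listed as inducers of Timp1, their receptors and the transcription factors behind them, 12 were measured; 2 rose and 2 fell at 6 h (33.3%, against 19.0% of all named genes), and 3 rose and 2 fell at 2 h (41.7%, against 19.2%). Il1b, interleukin-1 beta, was at 2.05 ± 0.13 at 6 h (adjusted p = 8.4e-05) and 3.90 ± 0.31 at 2 h (adjusted p = 6.7e-06); in the other reading it was at 0.22 and 0.30 and did not pass (adjusted p = 0.116 and 0.081). Tnf rose at 6 h (0.22 ± 0.046, adjusted p = 0.00636, or 0.0555 without 6 h rat 2) and was at -0.0037 ± 0.0624 at 2 h (adjusted p = 0.948). In the other reading Tnf passed below 0 at 6 h (-0.18, adjusted p = 0.03). Fosl2, a Fos family partner in AP-1, was at 0.34 ± 0.18 at 6 h (adjusted p = 0.0708) and rose by 1.00 ± 0.30 at 2 h (adjusted p = 0.00172); the other reading gave -0.076 and -0.0066. Il6st, the shared signalling chain of the interleukin-6 family, was at 0.072 ± 0.040 at 6 h (adjusted p = 0.16) and rose at 2 h (0.16 ± 0.054, adjusted p = 0.0201; 0.0951 without 2 h rat 2).

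The interleukin-6 receptor chain Il6r fell, with no rat whose absence ended the call, to -0.39 ± 0.12 at 6 h (adjusted p = 0.00263) and -0.36 ± 0.060 at 2 h (adjusted p = 0.00398). Ets1, a founding Ets factor, fell to -0.32 ± 0.11 at 6 h (adjusted p = 0.00787; 0.0531 without 6 h rat 2) and -0.25 ± 0.11 at 2 h (adjusted p = 0.021; 0.104 without 2 h rat 2). Stat3, which carries the signal of that cytokine family, was at 0.031 ± 0.027 at 6 h and -0.10 ± 0.39 at 2 h (adjusted p = 0.875 and 0.571), with its 2 probes at -0.041 and 0.10 at 6 h and at -0.33 and 0.12 at 2 h. Tgfb2, Egf, Tgfa, Fosl1 and Runx1 did not pass at either time, with means from -0.031 to 0.20. In the other reading of the flip arrays Tgfb2 passed above 0 and Tgfa below 0 at both times, and Fosl1 passed below 0 at 6 h. Il6, Osm, Tgfb1, Jun and Fos were not among the named genes.

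The genes whose pattern over the 12 arrays was most like that of Timp2 were also higher relative to the pool at 2 h than at 6 h. Pearson correlations with Timp2 were 0.969 for Il1b, 0.942 for Spink1l, 0.935 for Tsc22d1, 0.928 for the chitinase-like Chi3l1 and 0.918 for Rcn1, a calcium-binding protein of the endoplasmic reticulum. Over the 6 rat means the same 5 genes had 0.991, 0.975, 0.962, 0.948 and 0.949. Likeness in pattern did not mean likeness in sign: Tsc22d1 was at -0.36 ± 0.068 at 6 h and 0.40 ± 0.15 at 2 h, Chi3l1 at -0.37 ± 0.24 and 0.57 ± 0.25, and Rcn1 at -0.043 ± 0.094 and 0.44 ± 0.044. In all, 12 other genes had a correlation above 0.9 with Timp2. These points share arrays, pools and orientation, and with 2 times a step between them is enough for a high value.

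**Figure D4:**
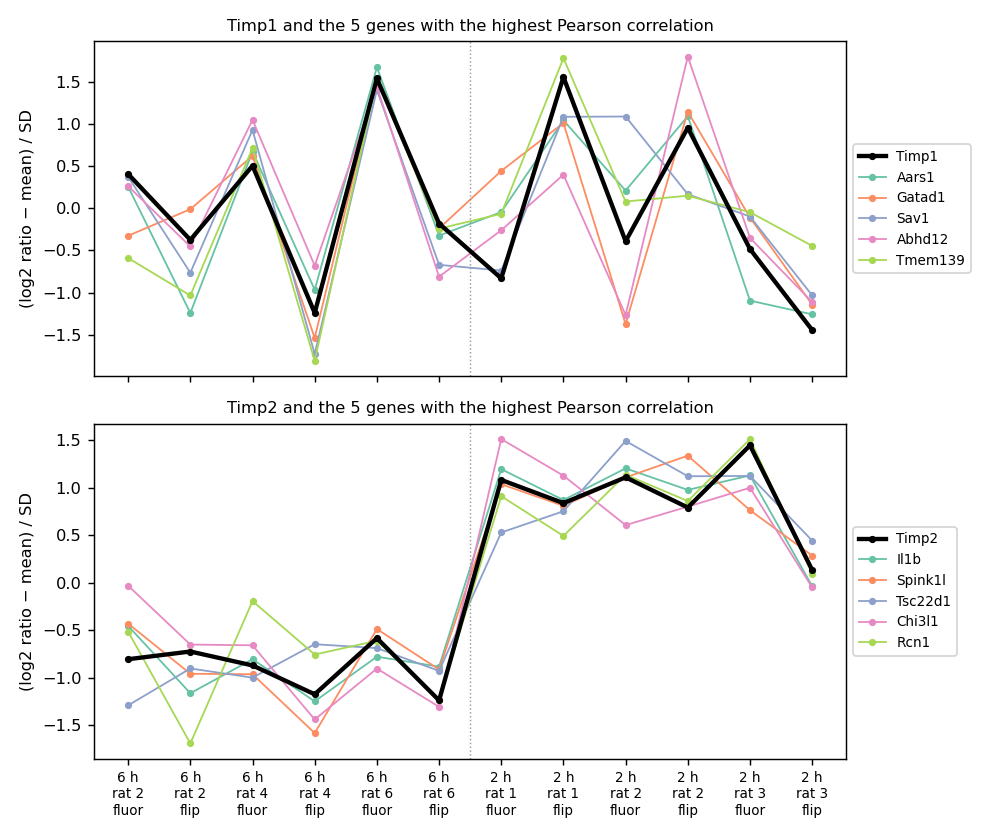
Log2 ratio of each gene less its mean and divided by its SD over the 12 arrays (vertical axis), by time, rat and array, for Timp1 (top, black) and Timp2 (bottom, black) with the 5 genes most correlated with each. The Timp2 group steps between 6 h and 2 h, with Pearson correlations of 0.918 to 0.969, and the Timp1 group changes from array to array with no step, at 0.796 to 0.882.

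For Timp1 the closest genes were less close: Aars1, an alanyl-tRNA synthetase (0.882), Gatad1 (0.822), Sav1, a Hippo pathway scaffold (0.81), Abhd12 (0.804) and Tmem139 (0.796), and 0 genes were above 0.9. Their means lay between -0.069 and 0.10 at 6 h and between -0.057 and 0.10 at 2 h. Timp1 and Timp2 had a Pearson correlation of 0.0112 over the 12 arrays (Spearman -0.0909) and of -0.137 over the 6 rat means.

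Markers of cells that blood could hold were read too, and their part in the Timp ratios was not tested. Of the platelet markers 0 passed at 6 h and 1 at 2 h, of the neutrophil markers 3 and 4 rose, of the monocyte and macrophage markers 2 and 1 fell, and of the liver markers 1 rose at each time, while over all named genes 19.0% passed at 6 h and 19.2% at 2 h. Of 17 platelet markers 2 were measured, and their mean ran over rats from -0.42 to -0.025 at 6 h and from 0.071 to 0.38 at 2 h. Pf4 was at -0.39 ± 0.35 at 6 h and 0.34 ± 0.25 at 2 h (adjusted p = 0.0851 and 0.122). In the other reading of the flip arrays Pf4 was at 0.25 and 0.20 (adjusted p = 0.00545 and 0.0219). Gp9 was at 0.022 ± 0.071 at 6 h and 0.18 ± 0.11 at 2 h (adjusted p = 0.762 and 0.0404, the second 0.183 without 2 h rat 2). Over 5 of 20 neutrophil markers the rat mean ran from 0.55 to 0.88 at 6 h and from 0.83 to 1.10 at 2 h, and over 3 of 16 monocyte and macrophage markers from -0.29 to -0.11 at 6 h and from -0.29 to -0.15 at 2 h. Over 12 of 17 liver markers it ran from 0.038 to 0.11 at 6 h and from 0.083 to 0.16 at 2 h. Single genes differed widely within these lists. Among neutrophil markers S100a9 was at 2.70 at 6 h and 2.98 at 2 h and S100a8 at -0.053 and -0.083. Lcn2 (0.61 and 0.69) and Il1r2 (0.73 and 0.62) lay near the list median of 0.61 and 0.62, and Chi3l1 was at -0.37 and 0.57. Among liver markers Tf was at 0.27 and 1.44, while the list median was 0.086 and 0.044. Since the files give ratios, which markers were absent from the RNA cannot be read from them.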

How the data were processed

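Total RNA of 6 rats was measured on 12 arrays of 2 colours. The deposited values are log2 ratios of the 2 channels; that the base is 2 was read from the values, whose powers of 2 were whole multiples of 0.0001 (tolerance 0.05 of that step) in 100% of ratios under 5. How the arrays were scanned, background-corrected and normalized, and with which dyes, is not stated in any label or header. Probes were named from the platform annotation and symbols brought up to date by gene identifier from the GRCr8 gene table: 4190 had 1 symbol, 46 several and 2964 none, and probes of a gene were averaged (236 genes).

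Arrays were averaged per rat, and limma 3.58.1 (R 4.3.3; lmFit and eBayes) was fitted to 3939 genes and 6 rats with 2 group means, Benjamini-Hochberg adjusted over all genes. The fit was also run on simulated data, with noise drawn independently for each gene and rat. That noise held no shared effect of pool, dye or array, so the run cannot speak to such effects. Named are genes of the lists that passed, the measured metalloproteinases, direct partners and inducers, and the 5 genes most correlated with each inhibitor. Members and lists were chosen with earlier results of these data known. Alternatives were the flip arrays multiplied by -1, either orientation alone, scaling, quantile normalization, neighbouring probes subtracted, each time fitted alone, and each rat left out. The labels number 3 rats at each time, and rat 2 of 6 h and rat 2 of 2 h were treated as different animals. These few rats and the single pool of each time limit the precision.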

Additional observations from a re-analysis of the deposited data

Results flagged for a closer look

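Between the times, 2 genes of the lists differed by limma's test of the difference itself. Spink1l was lower at 6 h than at 2 h by a log2 difference of -1.65 (SE 0.20, adjusted p = 0.0265), with means of -2.04 at 6 h and -0.39 at 2 h. The call ended without 6 h rat 2 (adjusted p = 0.0993), 6 h rat 6 (0.0915), 2 h rat 1 (0.0779) or 2 h rat 2 (0.0946). Il1b differed by -1.86 (SE 0.15, adjusted p = 0.00735), with means of 2.05 at 6 h and 3.90 at 2 h, and its call ended without 6 h rat 2 (adjusted p = 0.0554). Either gene was also among the 5 most correlated with Timp2. Groups of 3 rats are too small for a check of single outlying rats.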

How the results depend on the processing

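No paired analysis was possible because the 2 times share only 1 rat number. With the flip arrays multiplied by -1, 1461 genes passed at 6 h (749 as reported) and 0 between the times (20), and of the protease, inhibitor and matrix genes 33 passed at 6 h (20) and 0 between the times (1). Timp1 then stood at 0.090 at 6 h, -0.059 at 2 h and 0.15 for the difference, and Timp2 at 0.070, 0.15 and -0.079. In the same reading, genes that turned sign at 6 h included Plau -0.15, Fosl2 -0.076, Chi3l1 0.17, Cd63 -0.063, Mmp2 -0.12, Pf4 0.25, Rcn1 0.11, Tgfa -0.14, Tnf -0.18, Cast 0.0082, Col1a2 0.028, Ctse 0.051, Ctsl -0.24, Dcn 0.038, Itih4 -0.0063, Lamb2 -0.029, Mcpt1 -0.23, Mmp23 -0.088, Pcsk6 -0.0068, Serpina1 -0.060, Spink1l 0.24 and Spint2 -0.044. At 2 h Fosl2 (-0.0066), Mcpt1 (-0.21), Serpina1 (-0.11), Ctse (0.017), Mmp23 (-0.059) and Pcsk6 (-0.058) were among those that did so, and between the times Chi3l1 (0.053), Rcn1 (0.012) and Spink1l (0.17). A gene that turned sign did not always pass in that reading. On fluor arrays alone 1202 genes passed at 6 h, 1142 at 2 h (755 as reported) and 4 between the times, with Timp1 at 0.33 at 6 h and 0.18 for the difference, Timp2 at 0.39, 1.33 and -0.94, Ctsl at -0.049 and Mcpt1 at -0.0053 at 6 h. On flip arrays alone 336 genes passed at 2 h and 5 between the times, and 36 list genes passed at 6 h and 0 between the times; Timp1 was at 0.15 at 6 h and -0.12 for the difference, and Timp2 at 0.26, 1.03 and -0.78. Scaled to 1 spread, Timp1's difference was -0.031, Timp2 was at 1.35 at 2 h and -1.04 for the difference, and the calls between the times were 5 higher and 9 lower at 6 h (13 and 7 as reported). With quantile normalization Timp2 was at 1.43 at 2 h and -1.08 for the difference, with 8 calls between the times (3 higher, 5 lower). There were 10 such calls (4 higher, 6 lower) with neighbouring probes subtracted, and 500 calls at 2 h with each time fitted alone. Leaving out 1 rat gave 306 to 927 calls at 6 h, 323 to 668 at 2 h and 2 to 31 between the times. For list genes it gave 6 to 21, 6 to 12 and 0 to 1. Timp1's difference then ran from -0.027 to 0.058, with -0.0089 without 6 h rat 6, and Timp2's from -0.89 to -0.83. Fewer rats are in each such fit; the other causes were not tested. Ratios without spot signals leave the precision of single spots unknown.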
